A study of Mus musculus with 18 samples.

Results

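Sebaceous gland cells made up 60 of the 47251 cells kept from mouse back skin that had been stretched from below, or operated on without stretching, and dissociated for single-cell RNA sequencing. The cells were chosen by their UMI counts (unique molecular identifiers, each 1 captured transcript). A cell was taken as sebaceous when it held at least 20 UMIs of Scd1, at least 5 UMIs of Krt5, Krt14 and Krt79 together, none of Adipoq, Ptprc or Pecam1, under 0.5% of its UMIs in Col1a1 and Col1a2, and fewer than 3 UMIs of Mki67, Top2a, Cdk1 and Birc5 together. Cells were kept from 500 UMIs and 200 genes upwards, with no more than 10% of UMIs from mitochondrial genes. Of 114 kept cells with 20 or more Scd1 UMIs, 12 lacked the keratin UMIs. The other 102 included 30 with cycle genes, 8 over the collagen limit, 6 with Pecam1, 3 with Ptprc and 1 with Adipoq, and some failed more than 1 condition.

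All mice had the same operation, in which a path was opened under the skin from an incision near the tail towards the neck and the incision was closed. Expanded mice received a subcutaneous hydrogel expander near the neck, and control mice received none. Skin was taken at day 1 in 2 sequencing rounds, at day 2 in 2 rounds and at day 4 in 1 round, which gives 5 control and 5 expanded libraries. Sorted live cells of all mice of an arm and a round were pooled in 1 tube, so a library is a pool of animals. The labels give no genotype, strain or age. In 8 libraries, antibody hashtags marked the mouse of origin, and 35 of the 52 sebaceous cells in those libraries could be given to 17 mice, 12 control and 5 expanded, with at most 5 cells from 1 mouse.

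The sebaceous gland is a lipid-secreting appendage of the hair follicle. Dividing cells at its rim mature into sebocytes, which fill with lipid droplets and then break down whole to release sebum into the follicle canal. In mice, sebum is rich in wax esters, sterol esters and triglycerides, and the nuclear receptor PPARg, which Pparg encodes, is a central regulator of sebocyte maturation. Scd1 encodes the desaturase that makes monounsaturated fatty acids.

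The label was checked against Mgst1, Elovl3 and Pparg, which the rule does not use. Mgst1, a microsomal glutathione transferase, was detected in 59 of 60 cells. Elovl3, an elongase of very long chain fatty acids, was detected in 50 cells and Pparg in 44. All 3 genes were present in 38 cells, and 4 cells held neither Elovl3 nor Pparg. In the 14452 cells with a Ptprc UMI and under 5 keratin UMIs, taken as an immune background, 6.86% had a Scd1 UMI at a median of 7195 UMIs per cell, and 0 reached 20 Scd1 UMIs, which allows a share of up to 0.0208%. Elovl3 was found in 0.242% of these immune cells, Pparg in 3.92% and Mgst1 in 17.9%. The sebaceous cells were deep, with a median of 21104.5 UMIs (1458 to 79574) and 4100.5 genes (741 to 6444), and the 4 shallowest were 3 cells high in Elovl4, described below, and a control day 4 cell.

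The Scd1 limit was set on UMIs, so the cells around it are described without a test. Among the 4033 kept cells that met every condition of the rule but the Scd1 limit, 3068 had no Scd1 UMI, 884 had 1 to 9, 21 had 10 to 19, 20 had 20 to 39 and 40 had 40 or more. Elovl3 was detected in 0.619%, 2.26%, 38.1%, 60% and 95% of these 5 classes, and Pparg in 0.847%, 4.75%, 38.1%, 75% and 72.5%. The 21 cells just under the limit therefore carried Elovl3 and Pparg more often than cells with fewer Scd1 UMIs and less often than the cells just above it. Krt5, the keratin of basal cells, ran the other way, from 96.4% of cells without Scd1 to 61.9% just under the limit and 40% at 40 UMIs or more. Median depth was 9929 UMIs in cells without Scd1, 13998 just under the limit, 16662.5 just above it and 23852.5 at 40 UMIs or more, and the part of depth in these shares was not tested.

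**Figure D1:**
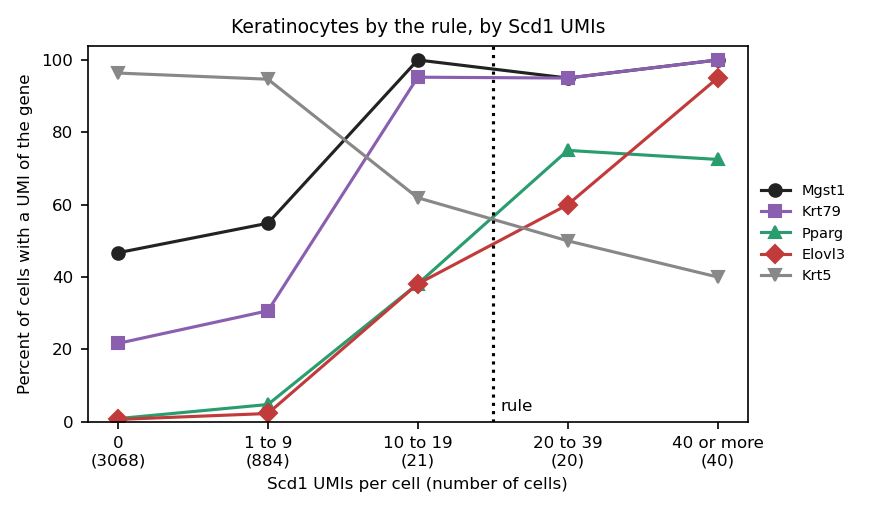
Percent of keratinocytes with at least 1 UMI of each of 5 genes (y axis) in classes of Scd1 UMIs per cell (x axis, number of cells in brackets); the dotted line is the limit of 20 UMIs. Elovl3 went from 0.619% to 95% of cells while Krt5 went from 96.4% to 40%, and the 21 cells just under the limit lay between.

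Levels in sebaceous cells were set beside those in the other 3973 keratinocytes, which met the same rule without the Scd1 limit. UMIs were summed per library and expressed as CPM (counts scaled to a common library total), which for 3-prime counts needs no correction for length. The log2 ratio of CPM + 1 was averaged over the 3 libraries with at least 10 sebaceous cells (control day 1 round 2, control day 4 and expanded day 4). No gene was tested in this contrast, because the rule chose the cells from their expression. Of the 6158 genes with at least 20 CPM in either set, 14.4% were at least 2-fold higher in sebaceous cells and 20.6% at least 2-fold lower, and the median log2 ratio was -0.03.

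Among genes at 100 CPM or more, Soat1, which esterifies cholesterol for storage, had the highest ratio, at 1321 CPM against 4.01 CPM in other keratinocytes, a log2 ratio of 8.03 ± 0.25 (SD, n = 3). Fa2h, a fatty acid hydroxylase, followed at 7.06 ± 0.63, and Far2, which makes the fatty alcohols of wax esters, at 6.70 ± 0.80. Elovl3 stood at 6.69 ± 0.66, the lipid droplet protein Cidea at 6.35 ± 0.56 and the fatty acid transporter Cd36 at 6.30 ± 0.67. Fabp5, a carrier of fatty acids in the cytoplasm, was the most abundant of them at 14699.7 CPM, with a log2 ratio of 4.53. In the 6 libraries with at least 5 sebaceous cells, 29 of the 30 genes with the highest ratios were higher in every library. The exception was Cyp17a1, a steroid hydroxylase, found in 11 cells, whose log2 ratio ran from -0.78 to 7.37.

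**Figure D2:**
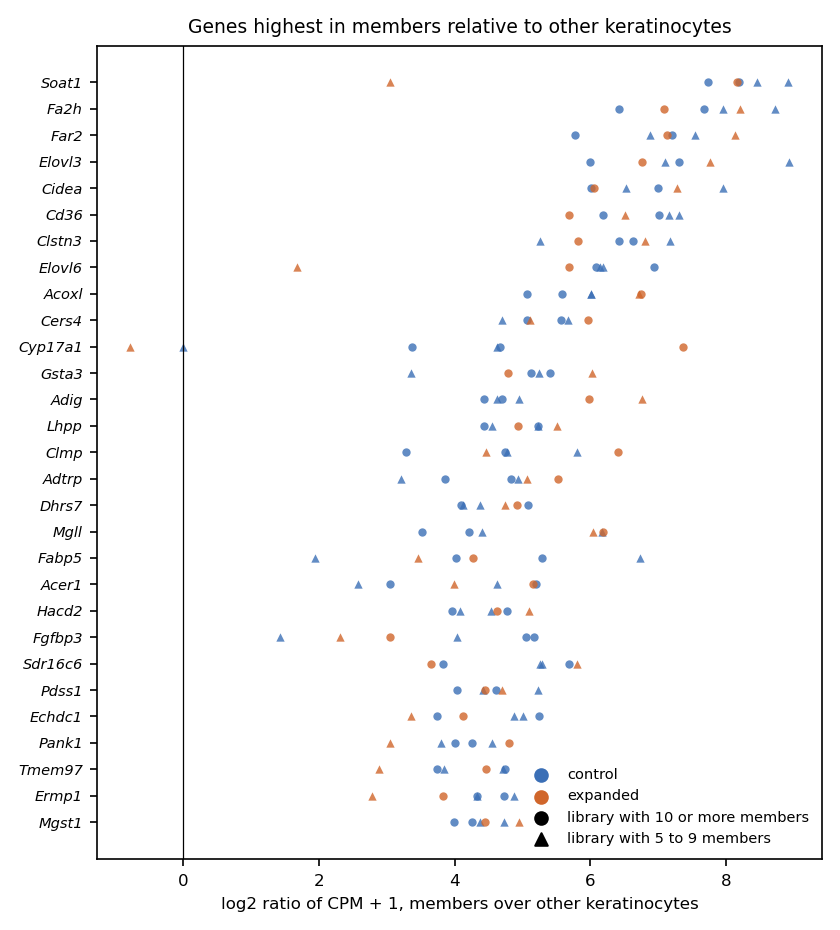
Log2 ratio of CPM + 1 in sebaceous cells over other keratinocytes (x axis) for 29 of the 30 genes with the highest mean ratios (y axis); each point is 1 library, blue for control and orange for expanded, a circle for 10 or more sebaceous cells and a triangle for 5 to 9. All points lie above 0 except 2 of Cyp17a1, and Soat1 (3.05) and Elovl6 (1.67) are far below their other libraries in expanded day 1 round 2.

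Expanded day 1 round 2 stood apart for some of these genes. Elovl6, which elongates palmitate, had 2396, 2424, 1921 and 2737 CPM in the sebaceous cells of control day 1 round 1, day 1 round 2, day 2 round 2 and day 4, 139 in expanded day 1 round 2 and 1301 in expanded day 4. Soat1 had 1210, 1708, 1682 and 1072 CPM in the same control libraries, 32.1 and 1182 in the expanded ones. For both genes the expanded day 1 round 2 value was below every other library. Of its 6 cells, 2 were shallow cells with high Elovl4 and 3 carried Krt5 (80, 12 and 89 UMIs), as described below.

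Pathway by pathway, sterol genes were the most uniform. Of 22 cholesterol synthesis and uptake genes with a level, 19 were at least 2-fold higher and 0 at least 2-fold lower, with a median log2 ratio of 3.09 against -0.03 over all genes. Idi1, which isomerises isopentenyl diphosphate, had 1323 CPM against 91.5 (log2 ratio 3.97), Cyp51, the lanosterol demethylase, 889 against 85.6 CPM (3.39), and Fdps, which makes farnesyl diphosphate, 942 against 94.5 CPM (3.26). Sqle, the squalene epoxidase, was closer, at 187 against 72.5 CPM (1.19).

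Fatty acid genes were less even. Of 22 with a level, 17 were at least 2-fold higher and 3 lower, with a median of 2.77. Fatty acid synthase, Fasn, stood at 197 against 27.5 CPM (log2 ratio 2.75), while the later steps of elongation were more abundant, with 2015 CPM for the reductase Tecr (2.79), 1261 for the dehydratase Hacd2 (4.46) and 969 for the ketoreductase Hsd17b12 (3.65). Among neutral lipid and wax ester genes, 8 of 12 were higher and 1 lower (median 2.38), with Dgat2, a triglyceride synthase, at 94.9 against 12.7 CPM and Awat2, a wax ester synthase, at 28.8 against 0.727 CPM. Droplet genes were higher in 7 of 9 and lower in 0 (median 2.30), including the droplet coat protein Plin2 at 2843 against 190 CPM. Peroxisome and oxidation genes were higher in 17 of 21 and lower in 1 (median 1.94), with the sterol carrier Scp2 at 1747 against 182 CPM and catalase, Cat, at 229 against 46.9 CPM.

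Promoter sequences are shown for the sterol and fatty acid genes because many members of these lists stood high together. The stretches were read from RefSeq (GRCm38.p6), run 5′ to 3′ on the gene's strand, and carry in capitals each CCAAT or its reverse complement ATTGG. For Soat1 the stretch is chr1:156474329-156474398 (minus strand), for Fasn chr11:120824570-120824639 (minus), for Idi1 chr13:8885536-8885605 (plus) and for Cyp51 chr5:4104698-4104767 (minus).
Soat1: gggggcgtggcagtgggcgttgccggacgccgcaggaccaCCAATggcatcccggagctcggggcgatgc
Fasn: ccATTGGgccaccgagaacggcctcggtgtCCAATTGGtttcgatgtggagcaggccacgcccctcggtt
Idi1: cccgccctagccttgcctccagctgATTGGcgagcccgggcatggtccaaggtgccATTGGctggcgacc
Cyp51: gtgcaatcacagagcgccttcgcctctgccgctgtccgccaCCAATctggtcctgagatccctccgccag
The Fasn window held 3 matches, of which 2 overlap on opposite strands, the Idi1 window 2, and the Cyp51 and Soat1 windows 1 each. CCAAT, the letters bound by the general promoter factor NF-Y, occurred on either strand in the 250 bases before the start of 37.5% of 27025 genes, and of 11 of the 22 genes among the 30 highest that had a promoter entry. The 4 windows were chosen for holding the letters, and a match is a description of sequence.

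Regulators split in both directions. Of 25 with a level, 5 were at least 2-fold higher and 11 lower, with a median of -0.66. Pparg stood at 130 against 6.03 CPM (log2 ratio 4.19), and Mc5r, the melanocortin receptor of sebaceous and other exocrine glands, at 37.3 against 1.77 CPM (3.47). The oxysterol receptor Nr1h3 stood at 3.26 and Cebpa, a factor of lipid-storing cells, at 1.96. Gata6, a factor of the upper follicle and sebaceous duct, had 2.33 against 23.3 CPM, Prdm1 0.921 against 26.7 CPM and the hedgehog receptor Ptch1 2.70 against 37.6 CPM. Sox9, a follicle stem cell factor, was lower at 281 against 666 CPM. Glutathione and redox genes were higher in 11 of 24 and lower in 3 (median 0.53), led by Gsta3 (5.11) and Mgst1 (4.23 ± 0.22, 3519 against 187 CPM).

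Genes of the other keratinocyte states were low. All 11 bulge genes with a level, 10 of 12 basal, 10 of 11 spinous and 8 of 9 upper follicle and duct genes were at least 2-fold lower in sebaceous cells, and the 1 upper follicle gene that was higher was Cidea. Wound and stress keratinocyte genes were lower in 17 of 18 and higher in 0, with a median of -4.10. Krt6a, the keratin of wounded epidermis, had 0 CPM in the sebaceous cells of the 3 libraries against 710 CPM, and Fst, which encodes follistatin, 2.33 against 805 CPM. Immediate early genes were lower in 17 of 21 and higher in 0, with a median of -3.02. Fos stood at 345 against 6889 CPM and Jun at 1361 against 4348 CPM.

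Transcripts of other cell types were present at low levels. The 15 fibroblast transcripts summed to 85.2 to 285 CPM in the sebaceous cells of the 4 control libraries with 5 or more of them, and to 16.6 to 32.1 CPM in the 2 expanded libraries. In other keratinocytes of these libraries the sums were 420 to 651 and 119 to 272 CPM. The 16 immune transcripts summed to 37.3 to 76.8 CPM in control and 64.2 to 130 CPM in expanded sebaceous cells, the 14 adipocyte transcripts to 214 to 695 and 225 to 544 CPM, and the 10 endothelial transcripts to at most 5.53 CPM, with 8 of the 10 at 0. The adipocyte list includes genes of lipid storage that sebocytes share, and Adipoq was at 0 by the rule.

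The 60 cells were divided among themselves into 3 clusters of 21, 21 and 18 cells, with the genes of the rule left out and the clusters numbered by their Mgll level. These are descriptions of the cells that formed them. Cluster 1 had the highest Krt5 (633 CPM, detected in 17 of 21 cells) and the lowest Elovl3 (65.5 CPM), and was led by Thbs1, S100a6, Ly6d, Mt2 and Plet1. Thbs1, which encodes thrombospondin, stood at 1801 CPM there, in 19 of 21 cells against 14 of the other 39. Cluster 2 had Fos, Fabp5, Cers4, a ceramide synthase, and Elovl6 as its leading genes, with Elovl3 at 574 CPM in all 21 cells. Cluster 3 was led by Mgll, Fa2h, Soat1 and Fabp5, and had the lowest Krt5 (35.3 CPM) and the highest Elovl3 (1108 CPM), Scd1 (6066 CPM) and Krt79 (3084 CPM). Median depth was close in the 3 clusters, at 20116, 19871 and 22691.5 UMIs. Control and expanded cells were spread over all 3, with 15, 14 and 13 control cells and 6, 7 and 5 expanded cells.

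**Figure D3:**
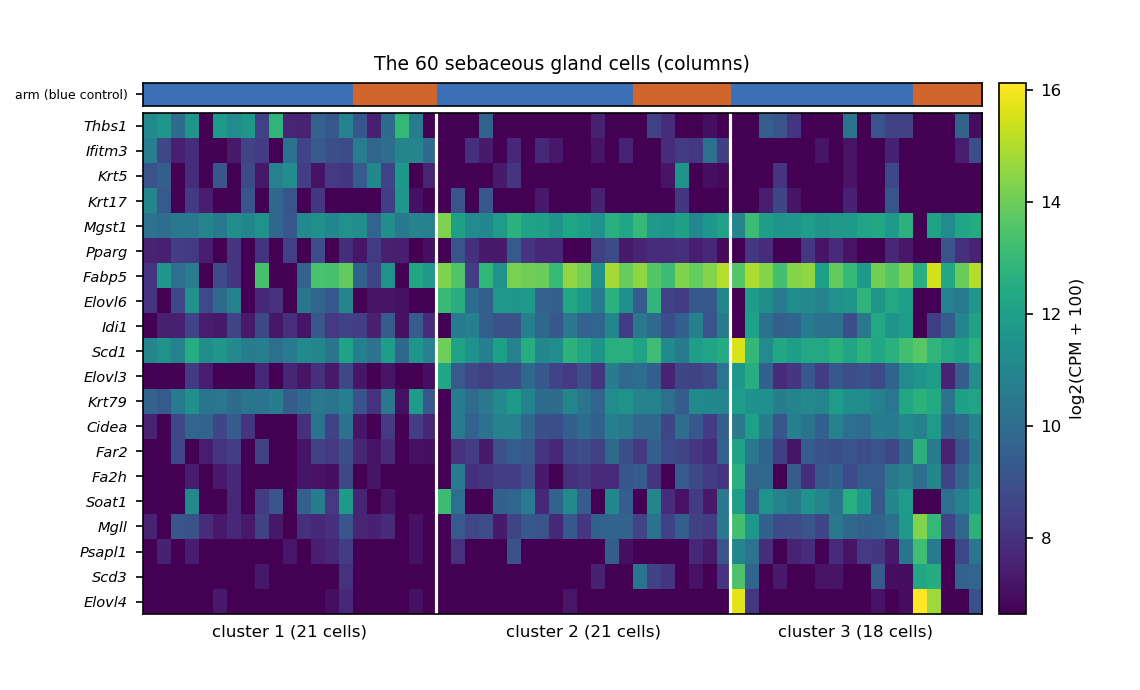
Log2(CPM + 100) of 20 genes (rows) in each of the 60 sebaceous cells (columns), ordered by cluster; the bar above gives the arm, blue for control and orange for expanded. Krt5 is at 633 CPM in cluster 1 and 35.3 CPM in cluster 3, Elovl3 at 65.5 and 1108 CPM, and 3 columns of cluster 3 stand out for Elovl4.

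In cluster 3, 3 cells differed from the rest. They had 1591, 2998 and 4184 UMIs, of which 87, 213 and 115 were Elovl4, an elongase of very long chain fatty acids, and 16, 61 and 33 were Mgll. The nuclear RNA Malat1 gave 2, 0 and 2 UMIs in them and mitochondrial genes 0.126%, 0.267% and 0.454% of UMIs. The first was in control day 1 round 1 and the other 2 in expanded day 1 round 2. Elovl6 and Pparg were at 0 UMIs in all 3 cells, and Krt79, which is a gene of the rule, gave 6, 20 and 23 UMIs.

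Control libraries held 7, 13, 1, 7 and 14 sebaceous cells at day 1 round 1, day 1 round 2, day 2 round 1, day 2 round 2 and day 4, and expanded libraries 1, 6, 1, 0 and 10. As percent of kept cells this was 0.120%, 0.156%, 0.0458%, 0.120% and 0.187% in control and 0.0339%, 0.102%, 0.0295%, 0% and 0.292% in expanded libraries. The 0 of 1927 cells in expanded day 2 round 2 allows a share of up to 0.156%. The arms overlapped, and expanded day 4 was the highest of all 10 libraries. The mean share was 0.126% ± 0.0527 in control and 0.0915% ± 0.118 in expanded skin (SD, n = 5 each), a difference of -0.0342 points (exact two-sided permutation test, p = 0.579, lower in 4 of 5 pairs of the same day and round). The smallest p this design can give is 0.00794. Without expanded day 4, the difference was -0.0844 points (exact p = 0.0317).

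Among keratinocytes the picture differed. Sebaceous cells were 2.10%, 2.40%, 2.17%, 2.03% and 4.52% of the keratinocytes by the rule in control libraries, and 0.164%, 0.469%, 0.826%, 0% and 2.98% in expanded ones. The expanded value was lower in each of the 5 pairs, and 4 of 5 expanded libraries lay below every control library. The means were 2.64% ± 1.06 and 0.887% ± 1.21 (SD, n = 5 each), a difference of -1.76 points (exact two-sided permutation test, p = 0.0397). Flipping the signs of the 5 pairs gave an exact p of 0.0625, the smallest that 5 pairs allow. Leaving out each library in turn gave exact permutation p from 0.0635 to 0.0794, except without expanded day 4. There it was 0.0159, the smallest that 5 against 4 libraries allow. With Scd1 required at 0.2% or more of a cell's UMIs in place of 20 UMIs, a setting chosen after seeing the data, the shares of keratinocytes were 1.74% ± 1.18 and 1.24% ± 1.68 (SD, n = 5 each). The difference was then -0.497 points (exact two-sided permutation test, p = 0.579), lower in 3 of 5 pairs, and no longer passed the test. The denominator moved with the arm: keratinocytes by the rule were 4.87% ± 1.78 of kept cells in control and 12.3% ± 8.43 in expanded libraries (exact p = 0.103, higher in 4 of 5 pairs). Their part in the lower share was not tested. The limit on cycle genes left out 26 cells that met every other condition, 8 from control and 18 from expanded libraries. As percent of kept cells, counting them turned the difference to 0.0474 points. The share of keratinocytes was not computed with them.

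**Figure D4:**
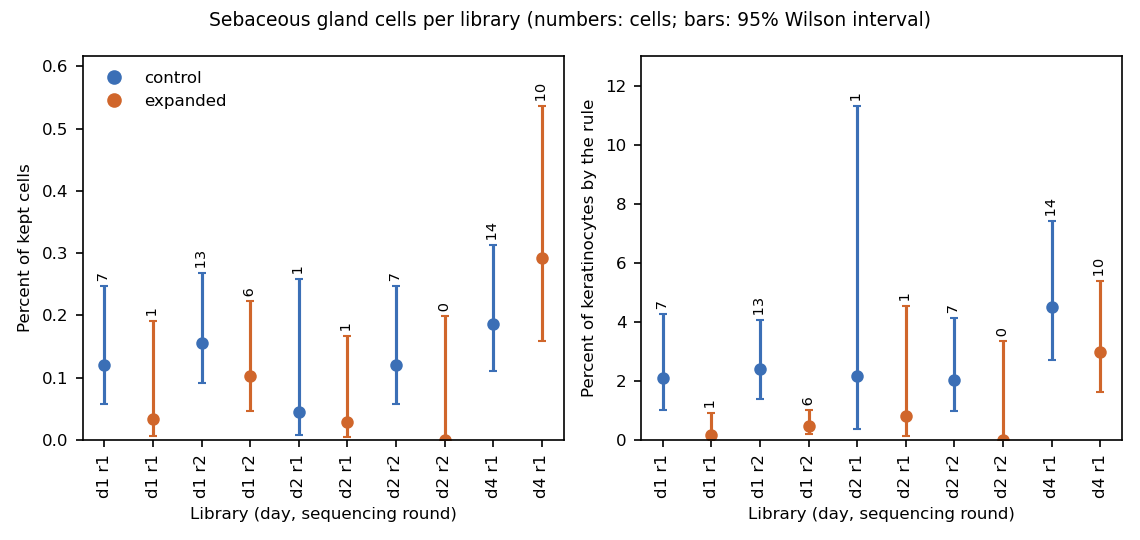
Sebaceous cells as percent of kept cells (left y axis) and as percent of keratinocytes by the rule (right y axis) in each library (x axis, d for day, r for sequencing round), with 95% Wilson intervals and the number of cells; blue is control and orange expanded. The arms overlap on the left, where expanded day 4 is highest at 0.292%, and the expanded value is lower in every pair on the right.

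Median depth of the sebaceous cells did not differ detectably, at 21127 ± 6513 UMIs over 5 control and 23391 ± 6250 over 4 expanded libraries (SD; exact two-sided permutation test, p = 0.603). The medians of control day 2 round 1, expanded day 1 round 1 and expanded day 2 round 1 are each 1 cell. Control and expanded medians were 20721.5 and 30686 UMIs at day 4, and 15522 and 15446 at day 1 round 2. These cells had already passed the Scd1 limit, so the test cannot show whether depth moved membership. Other keratinocytes were deeper in every expanded library (medians of 10575 to 14970 UMIs) than in any control library (7164 to 10047). The part of depth in the shares was not tested. No barcode of a sebaceous cell recurred in another library, and the 45 pairs of libraries shared at most 18 barcodes of kept cells.

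To ask which genes differed with expansion, UMIs of the sebaceous cells were summed per library. The 6 libraries with at least 5 such cells entered the test, 4 control (day 1 rounds 1 and 2, day 2 round 2, day 4) and 2 expanded (day 1 round 2, day 4). Control day 2 round 2 was the only day 2 library among them, so the day term took it up. Its values are listed below but did not inform the fold changes between arms, and without it 18 genes passed, including the 17 given next. Of 3307 genes tested with edgeR's quasi-likelihood test with day as a term, 17 passed an adjusted p of 0.05 (0.514%), 14 higher (0.423%) and 3 lower (0.0907%) in expanded skin. The genes that rose included S100a8, Saa1 and Lcn2, and the genes that fell were Ermp1, Malat1 and Apoe. Over all genes tested the median log2 fold change was -0.01. With each combination of day and sequencing round as a block in the fit (the replicate block), 50 genes passed, including all 17. Only the day 1 round 2 and day 4 blocks held both arms, so that fit sets 2 expanded libraries against 2 control libraries. It has 1 residual degree of freedom.

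Lcn2 encodes lipocalin 2, which withholds iron from bacteria. It stood at 63.3, 125, 639 and 649 CPM in the control libraries (day 1 round 1, day 1 round 2, day 2 round 2, day 4) and at 2150 and 1906 CPM in the expanded ones (day 1 round 2, day 4). Both expanded libraries lay above every control library, and Lcn2 was detected in 26 of 42 control and 15 of 18 expanded cells. The log2 fold change was 3.16 ± 0.53 (SE, edgeR adjusted p = 0.0272). The single sebaceous cells of the libraries outside the test held 988 CPM (expanded day 1 round 1, 24 UMIs), 389 CPM (expanded day 2 round 1, 9 UMIs) and 1079 CPM (control day 2 round 1, 19 UMIs), so the single control cell was above both single expanded cells.

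Saa1 encodes serum amyloid A, an acute phase protein. It was at 0, 0, 186 and 108 CPM in the control libraries and 1166 and 1481 CPM in the expanded ones, in 6 of 42 control and 9 of 18 expanded cells. The log2 fold change was 5.26 ± 0.71 (SE, edgeR adjusted p = 0.0177), in both pairs. A single cell carried 90.8% of the Saa1 UMIs of expanded day 1 round 2 and another 59.0% of those of expanded day 4. The single sebaceous cells of expanded day 1 round 1 and day 2 round 1, outside the test, held 1 and 0 Saa1 UMIs. Saa1 and Saa2 are near copies, so reads may be split between them or lost, and their separate counts are uncertain.

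S100a8 encodes a subunit of calprotectin, which binds metals and is made by neutrophils and by stressed epidermis. It gave 0, 0, 1 and 1 UMIs in the control libraries and 10 and 671 in the expanded ones, or 0, 0, 5.32 and 3.49 CPM against 107 and 1854 CPM (edgeR adjusted p = 9.0e-05). Pooled over libraries the ratio was 611-fold with a 95% exact counting interval of 169 to 5056, which covers counting error only. In expanded day 4, 2 cells that carried more than 1 hashtag, with 51247 and 79574 UMIs, held 94.5% of the S100a8 UMIs (634 of 671). Without them the library had 160 CPM, and the pooled ratio was 59.2-fold (15.5 to 503). These cells had 2 UMIs each over the 16 immune transcripts. Of the neutrophil genes, Cxcr2 and Retnlg were at 0 in both, while 1 cell held 1 UMI of Csf3r and the other 1 UMI of Lyz2, a gene of macrophages and neutrophils. All 10 S100a8 UMIs of expanded day 1 round 2 came from 1 cell. The single sebaceous cells of expanded day 1 round 1 and day 2 round 1, outside the test, each held 0 S100a8 UMIs. In the immune cells of the same libraries S100a8 stood at 53.8, 87.8, 139 and 29.9 CPM in control and 1802 and 2328 CPM in expanded skin, and in other keratinocytes at up to 5.71 CPM in control and 8.01 and 87.2 CPM in expanded skin. The part of immune RNA in the S100a8 values was not tested.

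Promoter stretches of these genes are shown because 5 of the 11 raised genes with a promoter entry (Saa1, Lcn2, Anxa1, Dmkn and Sbsn) held TTGCNNAA, the letters of C/EBP-type sites, on either strand in the 250 bases before the start, against 10.8% of 27025 genes. They come from RefSeq (GRCm38.p6) and run 5′ to 3′ on the gene's strand, with the match in capitals. Saa1 is chr7:46743124-46743193 (minus strand), Saa2 chr7:46751619-46751688 (plus) and Lcn2 chr2:32387917-32387986 (minus).
Saa1: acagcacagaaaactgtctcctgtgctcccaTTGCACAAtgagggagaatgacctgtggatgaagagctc
Saa2: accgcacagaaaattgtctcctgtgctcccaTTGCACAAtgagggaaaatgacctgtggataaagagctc
Lcn2: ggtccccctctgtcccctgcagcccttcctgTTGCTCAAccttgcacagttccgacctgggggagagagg
The Saa1 match began 182 bases before the start, the Saa2 match 183 and the Lcn2 match 216. Over the 250 bases before their starts, Saa1 and Saa2 were identical in 238 of 251 aligned columns (94.8%). Among the 30 genes highest in sebaceous cells, 4 of 22 with an entry held TTGCNNAA. Of the other letters searched, CCAAT was in 3 of the 11 raised genes, against 37.5% of all genes. CACGTG, the E-box, was in 0 of them, against 6.86%. The raised genes were called from these same data, and of the 5 only Saa1 was still called without cells flagged as doublets. A match is a description of sequence.

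Other genes that rose included Tceal9, a transcription elongation factor-like gene, with 7.91, 18.5, 26.6 and 48.9 CPM in control and 471 and 274 CPM in expanded libraries. Its log2 fold change was 3.59 ± 0.49 (SE, edgeR adjusted p = 0.0177), and 1 cell held 97.7% of its UMIs in expanded day 1 round 2. Ifitm3, an interferon-induced membrane protein that restricts viral entry, had 63.3, 55.4, 282 and 154 CPM in control and 952 and 553 CPM in expanded libraries, a log2 difference of 2.97 ± 0.44 (SE, adjusted p = 0.0178). In these 6 libraries the 2 arms did not overlap for either gene. All 89 Ifitm3 UMIs of expanded day 1 round 2 came from its 3 cells with Krt5, which held 6, 31 and 52. In cells with under 5 Krt5 UMIs, a setting chosen after seeing the data, Ifitm3 was not called (1.98, edgeR adjusted p = 0.497). The part of cell make-up in the Ifitm3 difference was not tested. Dbi, the acyl-CoA binding protein, rose by 2.59, Anxa1, an anti-inflammatory annexin, by 2.54, and Calml3, an epithelial calmodulin-like protein, by 3.06 on the log2 scale. Dmkn and Sbsn, secreted proteins of differentiating epidermis, rose by 2.16 and 1.99, Psapl1 by 2.13 and 1810037I17Rik by 3.33. Cxcl14, an epithelial chemokine, was higher by 4.12, through 663 CPM in expanded day 1 round 2 against 50.8 in its control, while the day 4 pair went from 3.49 to 0 CPM. A single cell held 90.3% of the Cxcl14 UMIs of expanded day 1 round 2 (56 of 62). The same cell, with 80 Krt5 and 247 Krt15 UMIs, held 95.7% of the Dbi UMIs, 97.7% of the Tceal9 UMIs and all S100a8 UMIs of that library. In other keratinocytes Cxcl14 was at 827 to 1688 CPM in every one of the 6 libraries.

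Mgll, the monoacylglycerol lipase that ends triglyceride breakdown, had 372, 402, 1017 and 572 CPM in control and 1241 and 1837 CPM in expanded libraries. It rose by 1.68 ± 0.25 on the log2 scale (SE, edgeR adjusted p = 0.0178). The 2 cells with more than 1 hashtag held 90.1% of its UMIs in expanded day 4, and without them that library had 286 CPM, below every control library. The same cells held 94.3% of the 1810037I17Rik, 85.7% of the Psapl1, 82.5% of the Sbsn, 69.9% of the Anxa1 and 56.7% of the Lcn2 UMIs of the library, but 19.6% of Saa1, 21.5% of Ifitm3 and 14.1% of Tceal9.

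Of the genes that fell, Ermp1, an endoplasmic reticulum peptidase, had 530, 374, 192 and 401 CPM in control and 85.6 and 111 CPM in expanded libraries, a log2 difference of -2.07 ± 0.36 (SE, with an edgeR adjusted p = 0.0380). Malat1 had 13991, 10517, 11061 and 11781 CPM in control and 5454 and 6584 CPM in expanded libraries (-1.02 ± 0.17, adjusted p = 0.0248). Apoe, the apolipoprotein that carries cholesterol out of cells, had 17408, 22078, 14430 and 19702 CPM against 12866 and 11438 CPM (-0.69 ± 0.12, adjusted p = 0.0400). In these 6 libraries the arms did not overlap for any of the 3 genes. The single cells of the libraries outside the test did not keep this order. Ermp1 was at 41.2 and 778 CPM in those of expanded day 1 round 1 and day 2 round 1 and 56.8 CPM in that of control day 2 round 1, Malat1 at 2306 and 173 against 5791 CPM, and Apoe at 8648 and 20911 against 10900.4 CPM. Mitochondrial genes moved with Malat1: their median share in sebaceous cells was 6.06%, 6.37%, 4.59% and 5.19% in the 4 control libraries and 1.57% and 4.37% in the 2 expanded ones. In expanded day 1 round 2, 3 of the 6 cells held 0, 0 and 2 Malat1 UMIs, with 0.267%, 1.00% and 0.454% mitochondrial UMIs. The part of RNA quality in the Malat1 difference was not tested. Ermp1 was also among the 30 genes highest in sebaceous cells, with a log2 ratio of 4.29 to other keratinocytes.

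**Figure D5:**
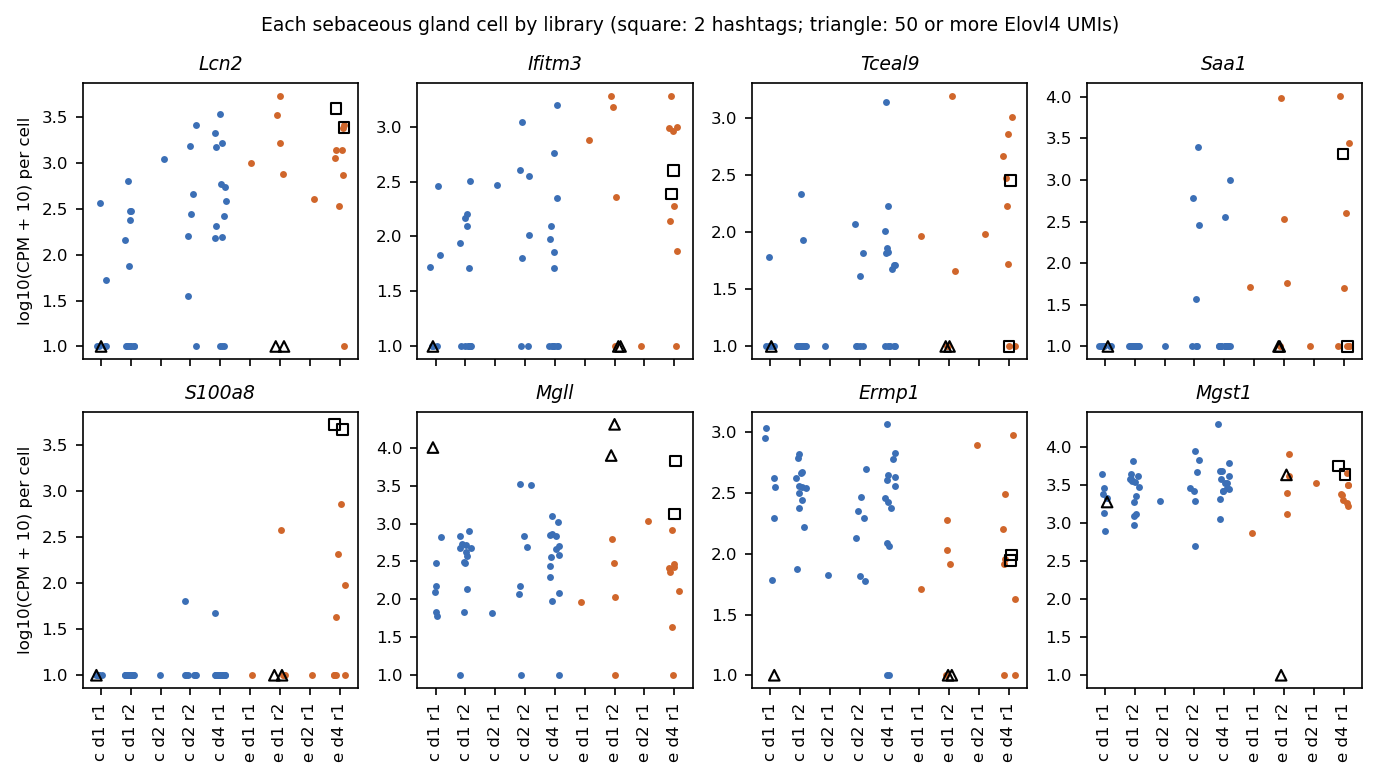
Log10(CPM + 10) of 8 genes (y axes) in each sebaceous cell by library (x axis, c for control, e for expanded, d for day, r for round), blue for control and orange for expanded; squares are the 2 cells with more than 1 hashtag and triangles the 3 cells with 50 or more Elovl4 UMIs. Lcn2 is above 0 in 15 of 18 expanded and 26 of 42 control cells, S100a8 in 7 and 2, and the squares are the highest S100a8 points.

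The lipid programme itself gave few calls. Of the markers, Mgst1 stood at 2468, 3218, 3699 and 3679 CPM in control and 3241 and 3661 CPM in expanded libraries, with a log2 difference of 0.11 ± 0.18 (SE, edgeR adjusted p = 0.937). Elovl3 had 0.87 ± 0.33 (adjusted p = 0.479) and Pparg -0.49 ± 0.52 (adjusted p = 0.875), and neither passed. No gene passed among 19 fatty acid, 20 cholesterol, 6 neutral lipid, 16 peroxisome, 19 redox and 11 regulator genes tested, whose median log2 fold changes were 0.03, 0.06, -0.34, -0.23, 0.11 and 0.12. DESeq2 also called 0 of these 90 different genes, and 16 (17.8%) had an unadjusted edgeR p below 0.05, 11 of them higher and 5 lower, against 278 of all 3307 genes tested (8.41%). In the droplet list 1 of 8 rose, Mgll. In counts simulated from these libraries, the same fit recovered 8.5% of genes set to a log2 difference of 1 and 79% of those set to 2. The simulation gave every gene the same spread and had no single cells that hold most UMIs of a gene, so real recovery may be lower. A lack of calls is therefore weak evidence, most of all about changes of the smaller size. Elovl6, at -2.41 ± 0.56 (SE), did not pass in the fit of the 6 libraries (edgeR adjusted p = 0.134). Without cells flagged as doublets it was called, at -3.12 ± 0.39 (SE, edgeR adjusted p = 0.00280), the 1 lower gene of 10 called there.

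Among the other lists, 3 of 4 tested antimicrobial and acute phase genes rose (S100a8, Saa1, Lcn2), 1 of 2 chemokines (Cxcl14), 1 of 8 interferon response genes (Ifitm3) and 2 of 4 spinous genes (Sbsn, Dmkn), against 0.423% of all genes tested. The fourth antimicrobial gene, the protease inhibitor Slpi, had 0, 0, 69.2 and 0 CPM against 128 and 5.53 CPM and did not pass (adjusted p = 0.199). Genes reached the test through the libraries where they were high: 21 of the 25 antimicrobial genes in the files were too low to be tested. The counts of these lists therefore cannot be weighed against the share of all genes. Cxcl14 rose in 1 of its 2 pairs. None of the 16 tested immediate early genes passed, with a median of 0.89, nor any of 4 wound, 19 heat shock, 13 glycolysis, 7 iron and cold response, 6 basal, 3 bulge and 2 upper follicle genes. Over these lists (67 different genes) edgeR and DESeq2 each called 0, and 26 (38.8%, against 8.41% of all genes) had an unadjusted edgeR p below 0.05, 17 of them higher and 9 lower. Fos, for example, had 23.7, 439, 271 and 150 CPM in control and 1433 and 445 CPM in expanded libraries, where both expanded libraries lay above every control library without a call.

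These calls rest on few cells. Without cells flagged as doublets, 10 genes passed, 6 of them among the 17 (Cxcl14, Dbi, Ifitm3, S100a8, Saa1, Tceal9), with Lcn2 at 2.97 (adjusted p = 0.0676) and Mgll at 0.62 (adjusted p = 0.821), and without the 3 cells high in Elovl4 only S100a8, Saa1 and Tceal9 passed. Leaving out control day 1 round 2 left 1 call, S100a8. Leaving out expanded day 4 left a single expanded library, of 6 sebaceous cells, so calls of that fit have no replicate of the expanded arm. S100a8 was not among the genes tested there, while the log2 difference was 10.7 for Saa1 and 4.89 for Tceal9.

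In the other keratinocytes of the same 6 libraries, 34 of 11414 genes passed the same test (0.298%), 16 higher (0.14%) and 18 lower (0.158%), and none of the 17 was among them, though 6 had an unadjusted p below 0.05 there (S100a8, Ifitm3, Malat1, Lcn2, Ermp1, Apoe). Saa1 was at most 14.9 CPM in these cells, with a log2 fold change of 0.19 ± 0.41 (adjusted p = 0.854). Lcn2 had 1.24 ± 0.35 (adjusted p = 0.165), Ifitm3 1.08 ± 0.25 (adjusted p = 0.129) and Malat1 -0.53 ± 0.16 (adjusted p = 0.181).

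Whether the difference between arms was itself different in sebaceous cells and other keratinocytes was tested as an interaction within libraries. In the 3 libraries with at least 10 sebaceous cells, 78 of 10514 genes passed (0.742%), 65 with a higher response in sebaceous cells (0.618%) and 13 with a lower one (0.124%). Only 1 of these libraries was expanded, so this fit sets expanded day 4 against 2 control libraries and has no replicate of the expanded arm. With the 6 libraries of at least 5 sebaceous cells, a setting chosen after seeing the data, 43 of 10434 genes passed (0.412%), 38 higher (0.364%) and 5 lower (0.0479%), and 25 of them were shared with the 78.

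With 6 libraries the difference of the log2 responses was 4.07 ± 0.55 for Saa1 (SE, edgeR adjusted p = 3.0e-06) and 5.42 ± 0.72 for Vcan, which encodes the matrix proteoglycan versican (adjusted p = 2.4e-06). With 3 libraries it was 4.41 and 6.79. Krtdap, a secreted epidermal peptide, stood at 3.98 with 6 libraries and 6.64 with 3, Anxa1 at 2.28 and 3.07, 1810037I17Rik at 3.67 and 3.98, and Mgll at 1.58 and 2.38, each called in both fits. Lcn2 was called in neither, at 0.87 ± 0.51 with 6 libraries (adjusted p = 0.904) and 0.32 ± 0.29 with 3. Vcan had 0, 0, 16 and 27.9 CPM in the sebaceous cells of the control and 85.6 and 180 CPM in those of the expanded libraries, against at most 26.6 CPM in other keratinocytes, and 10.8% of its UMIs in expanded day 4 came from the 2 cells with more than 1 hashtag. For Krtdap these cells held 98.6%, and without them that library had 8.65 CPM. Elovl6 was called lower with 6 libraries, at -2.25 ± 0.45 (SE, edgeR adjusted p = 0.00356), and not with 3, at -0.73 ± 0.27 (adjusted p = 0.330).

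Of 5 named genes with a response called lower in sebaceous cells with 3 libraries, 1 was called with 6. Krt17 had -3.59 with 3 libraries and 0.80 with 6 (adjusted p = 0.988), Krt15 -3.10 and 1.87 (adjusted p = 0.640), S100a6 -2.15 and -0.29 (adjusted p = 1), and Btg2 -2.29 and -0.67 (adjusted p = 0.905). Chil1 was called in both, at -5.19 and -4.28 (adjusted p = 0.0250). Krt15, a keratin of follicle stem cells, had 36.9 and 87.3 CPM in the sebaceous cells of the 2 control libraries with 10 or more, 8.29 in expanded day 4 and 3209 in expanded day 1 round 2.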

How the data were processed

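The deposited files hold raw UMI counts per gene and cell from 10 mRNA libraries (32285 genes, 55174 barcodes, 17726739 to 75470722 UMIs per library) and hashtag counts. Per the file headers and the submitters' processing notes the authors made the counts with Cell Ranger 6.1.2 on mm10. Whether the deposited cells had been filtered further is not given in the sources used here.

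The members and gene lists were chosen with earlier results of these data known, so list counts are not independent evidence of direction. Libraries, which are pools of mice, were the units, and p-values refer to the spread between such pools. The interaction with 3 libraries is an exception, since with 1 expanded library it measures no spread between expanded pools. Sums of UMIs were tested with edgeR 4.0.16 (quasi-likelihood, filterByExpr, TMM, day as a term, Benjamini-Hochberg adjustment over all genes tested) in R 4.3.3, and DESeq2 1.42.0 was an alternative. The planned minimum of 10 sebaceous cells per library left 3 libraries and no residual degrees of freedom, so a minimum of 5 cells (6 libraries, 2 residual degrees of freedom) is reported. The interaction test kept 10 cells and has library as a block. The scripts were tested on simulated data. Genes named for expansion were outside the rule, past an adjusted p of 0.05, at 20 CPM or more in the higher arm and changed the same way in both pairs, up to 12 per direction; Mgll, 13th by size, and Cxcl14 were named after their values were seen.

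Shares were compared by exact permutation tests (scipy 1.17.1), with Wilson intervals at 95% and a limit of 3 counts for a count of 0, both covering counting error only. Hashtags were called with HTODemux (Seurat 5.3.0, quantile 0.99), and day 1 round 1 had none. Scrublet (scanpy 1.11.5) marked 0 sebaceous cells, and under 0.5% of the kept cells in 4 libraries, where it may not have worked. Sebaceous cells with more than 1 hashtag numbered 2 and were kept. Clusters came from Leiden clustering (leidenalg 0.10.2, resolution 0.5, 300 variable genes). Round numbers pair control and expanded libraries, since the labels name them as sequencing rounds. Same-round libraries' deviations correlated at 0.03 (day 1 round 2) and 0.14 (day 4). Promoters were taken from RefSeq (GRCm38.p6) as given, and aligned with Biopython 1.88. Some genes of these lists are counted but not reported by name here.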

Additional observations from a re-analysis of the deposited data

Results flagged for a closer look

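In 28 groups of libraries tested for 1 that lay far from the rest, 4 had such a library, and chance gives about 1 in 20. Day 4 was the highest library in both arms for sebaceous cells as a share of keratinocytes, at 4.52% in control and 2.98% in expanded skin. Psapl1 stood at 351 CPM in control day 2 round 2 and Cxcl14 at 50.8 CPM in control day 1 round 2, each far above the other control libraries.

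For 11 named genes the interaction test with 3 libraries, of which 1 was expanded, gave a difference in response between sebaceous cells and other keratinocytes, with no replicate of the expanded arm. The difference of log2 responses was 3.07 for Anxa1, 6.64 for Krtdap, 3.98 for 1810037I17Rik, 6.79 for Vcan, 4.41 for Saa1 and 2.38 for Mgll. It was -2.15 for S100a6, -3.59 for Krt17, -2.29 for Btg2, -5.19 for Chil1 and -3.10 for Krt15. With 6 libraries, Krt17 (0.80, edgeR adjusted p = 0.988), Krt15 (1.87, 0.640), S100a6 (-0.29, adjusted p = 1) and Btg2 (-0.67, 0.905) were not called, and the other 7 were.

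In the single sebaceous cells of expanded libraries outside the test, 3 values of genes that rose, each of at least 3 UMIs, lay above every control library of the test. The cell of expanded day 1 round 1 had 988 CPM of Lcn2 and 741 CPM of Ifitm3, and the cell of expanded day 2 round 1 had 1080 CPM of Mgll. The single cell of control day 2 round 1 also exceeded those libraries for Lcn2, with 1079 CPM, and narrowly for Ifitm3 (284 against 282 CPM). Values that rest on 2 UMIs lay above them too, for Tceal9 in both expanded cells (82.4 and 86.4 CPM) and for Dbi in the control cell (114 CPM). Ermp1, which fell in the libraries tested, stood at 778 CPM (18 UMIs) in the cell of expanded day 2 round 1, above every control library. Other raised genes were absent: S100a8, 1810037I17Rik, Calml3, Psapl1, Sbsn and Cxcl14 gave 0 UMIs in both single expanded cells. Saa1 gave 1 and 0 UMIs in the cells of expanded day 1 round 1 and day 2 round 1, which held 24284 and 23146 UMIs.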

How the results depend on the processing

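The 17 genes called with expansion kept their direction in all 268 values under the alternatives in which they were tested, and 177 of these were still called. The number of calls was 12 with DESeq2 (9 shared), 17 with RLE size factors, 95 with no filter on low counts, 50 with the replicate block, 1 after thinning to 2000 UMIs (Saa1, of 295 genes tested), 10 without doublets, 24 at 40 or more Scd1 UMIs, 49 with Scd1 at 0.2% or more of UMIs, 1 in cells with Mgst1 and Elovl3 or Pparg (S100a8), and, chosen after seeing the data, 6 in cells with under 5 Krt5 UMIs and 3 without cells high in Elovl4. Leaving out 1 library gave 1 to 122 calls. Saa1 lost its call with DESeq2 (adjusted p = 0.705). The interaction gave 43 calls with at least 5 cells, 1 after thinning, and 36, 38 and up to 161 with at least 5 cells and 1 library left out.

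The difference in the share of keratinocytes was -1.76 points (-2.28 to -1.29 with 1 library left out) and -0.497 with Scd1 at 0.2% or more of UMIs. In the share of kept cells it was -0.0342 points, 0.0185 with Scd1 at 0.2% or more of UMIs, 0.0474 with cycling cells included, and -0.0844 to -0.0113 with 1 library left out. The depth difference was -9377 UMIs with Scd1 at 0.2% and -168 to 5039 with 1 library left out. Mgst1 turned to -0.043, -0.029 and -0.074 (without doublets and with 40 or more Scd1 UMIs or 0.2%). In the interaction with at least 5 cells and 1 library or none left out, Krt17 and Krt15 turned positive in 6 fits. Krt17 was 0.80, 0.73, 0.60, 0.55, 1.22 and 3.23 there, and Krt15 1.87, 1.68, 1.5, 2.28, 1.82 and 4.40. Of all 11 alternatives to the fit of 3 libraries, each gene turned in these 6 only. Their lowest values among the 11 were -3.62 and -5.27. With at least 5 cells S100a6 also reached 1.28, Btg2 0.47, Krtdap -0.13, and Lcn2 -0.34 and -0.40. For these changes the cause was not tested. The interaction with at least 10 cells could not be fitted with a library left out, and a minimum of 20 cells left no libraries. The 60 cells, and 0 to 14 per library, limit what could be detected.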

Other observations

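Cells that met every condition of the rule except the limit on cycle genes were looked at after the values were seen. There were 26, of which 8 came from control and 18 from expanded libraries. Mgst1 was detected in all 26, Pparg in 23 and Elovl3 in 13, and 18 of them held at least 5 Krt5 UMIs, the keratin of the gland's basal layer. Their median depth was 38889.5 UMIs, 3 carried more than 1 hashtag and Scrublet marked 1.

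As a share of sebaceous and cycling cells together, cycling cells were 0%, 7.14%, 0%, 36.4% and 17.6% in control day 1 round 1, day 1 round 2, day 2 round 1, day 2 round 2 and day 4. In expanded day 1 round 1, day 1 round 2, day 2 round 1 and day 4 they were 75%, 14.3%, 80% and 50%, of 4, 7, 5 and 20 cells. The means were 12.2% ± 15.3 (SD, n = 5) and 54.8% ± 30 (SD, n = 4), and the arms overlapped. These shares are given as a description and without a p-value, since the cells were chosen by their cycle genes after the values were seen. With every cell thinned to 10000 UMIs and 3 control and 2 expanded cells below that depth omitted, the shares were 4.50% ± 6.22 and 23.8% ± 25.6.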
